A study of Mus musculus with 15 samples.

Results

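The mir-15, mir-16, mir-195 and mir-497 family was followed across left ventricular (LV) tissue of 15 mice by miRNA sequencing. Its members were chosen by name, with earlier results of these data known. All rows of the count data were taken for mir-15a, mir-15b, mir-16-1, mir-16-2, mir-195a, mir-195b, mir-497a and mir-497b, with the 5p and the 3p arm in separate rows. This gave 16 of 1836 rows, from 8 of 918 precursors. The study compared 5 wild-type mice (wt), 5 mice without L-arginine:glycine amidinotransferase (AGAT-/-) and 5 AGAT-/- mice that were given homoarginine (AGAT-/-hArg) for 4 weeks by osmotic mini pump. AGAT forms homoarginine and the precursor of creatine. The animals were littermates on a C57BL/6J background, and both deficient groups carry the same whole-body deletion of the AGAT gene, Gatm. Age and sex are not given in the sources used here. Because Gatm gives no miRNA, the genotype labels could not be checked in these counts. By their labels, all wt and AGAT-/- libraries ran on sequencing lane 8 and all AGAT-/-hArg libraries on lane 2, so that the effects of lane and supplementation cannot be told apart. A pump without homoarginine is not described for the other groups in the sources used here. An effect of the pump itself can therefore not be told apart from that of homoarginine either.

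A miRNA is cut from a hairpin precursor whose arms can each leave a mature strand of similar length, and a bound strand recognises target mRNAs mainly by its seed, the bases just after its 5′ end. The family is known as a brake on cell division, with cyclins and the survival factor Bcl2 among its best described targets. In the mouse heart, mir-195 and its relatives are known for their increase after birth, when cardiomyocytes leave the cell cycle.

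The 5p strands are shown first because their shared seed defines the family. Sequences are from RefSeq (build GRCm38.p6), which held an entry for 14 of the 16 rows and none for mir-195b-3p and mir-497b-3p. They are written 5′ to 3′ with the seed, bases 2 to 8, in capitals. The row names mir-16-1-5p and mir-16-2-5p stand for the same mature sequence.
mir-497a-5p: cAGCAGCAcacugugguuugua
mir-195a-5p: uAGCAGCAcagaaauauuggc
mir-195b-5p: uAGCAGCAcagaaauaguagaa
mir-16-1-5p: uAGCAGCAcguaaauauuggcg
mir-15a-5p: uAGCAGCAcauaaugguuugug
mir-15b-5p: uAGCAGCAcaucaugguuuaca
mir-497b-5p: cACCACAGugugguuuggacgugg

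Of the 8 rows of 5p strands, 7 carry the seed AGCAGCA, and the exception is mir-497b-5p. The first 6 bases of that seed stood at bases 2 to 7 in 11 of 1679 mature names of the RefSeq table (0.655%). Beyond the seed the members diverge. The closest pairs were mir-195a-5p with mir-16-1-5p, equal at 19 of 21 positions, and mir-195a-5p with mir-195b-5p, equal at 18 of 21 positions with a shared run of 16 bases. By contrast, mir-497a-5p and mir-195a-5p, which lie next to each other in the genome, were equal at 12 of 21 positions, and mir-497a-5p was nearer to mir-15a-5p (17 of 22). The treatment of reads with more than 1 matching miRNA is not given in the sources used here, so that the few reads of mir-195b-5p are uncertain.

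The 3p strands that held reads are shown next, since they carried the reads of mir-15a and mir-16.
mir-16-2-3p: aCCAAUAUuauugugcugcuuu
mir-16-1-3p: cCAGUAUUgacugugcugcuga
mir-15a-3p: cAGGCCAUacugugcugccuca
mir-497a-3p: cAAACCACacugugguguuag

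The 6 rows of 3p strands with a sequence had 6 different seeds, and none of these was the 5p seed. Toward the 3′ end, 5 of the 6 hold UGCUGC (read on the mature strand only), all but mir-497a-3p. So do 10 of 709 mature 3p sequences of the RefSeq table (1.41%), a count that includes the family's own. These letters are the reverse complement of GCAGCA, the end of the 5p seed, so their presence is not independent of that seed. The hairpins of mir-497a and mir-16-1 show the arms in place, with the mature strands in capitals, for a precursor counted mainly on its 5p arm and one counted on its 3p arm.
Mir497: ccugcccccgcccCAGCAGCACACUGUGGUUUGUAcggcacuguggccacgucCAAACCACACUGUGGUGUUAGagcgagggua
Mir16-1: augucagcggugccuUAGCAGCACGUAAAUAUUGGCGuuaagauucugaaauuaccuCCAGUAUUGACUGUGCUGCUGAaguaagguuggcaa

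Most family members lie in pairs (GRCm38, GENCODE M21). Mir497 (chr11:70234717-70234800, plus strand) and Mir195a (chr11:70235042-70235135, plus strand) are separated by 241 bases, and no other gene overlaps Mir195a. Mir497b (chr11:70234692-70234816) lies on the minus strand across Mir497. Mir15a (chr14:61632027-61632110) and Mir16-1 (chr14:61631880-61631972) are 54 bases apart on the minus strand within the noncoding gene Dleu2, where Mir15a is intronic and Mir16-1 overlaps an annotated exon. Mir15b (chr3:69009772-69009835) and Mir16-2 (chr3:69009902-69009996) are 66 bases apart on the plus strand in an intron of Smc4, which encodes a condensin subunit. Mir195b (chr2:56785811-56785907, plus strand) stands alone and overlaps no other gene.

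Libraries held between 365634 and 570492 reads on miRNAs, with medians of 442725 in wt, 454326 in AGAT-/- and 464886 in AGAT-/-hArg mice. The family took between 0.284% and 0.402% of them. Counts were scaled by edgeR's TMM method, which corrects for library composition, and are given as CPM, read counts brought to the same total per library. In these libraries 3 reads, the upper limit that a count of 0 allows, correspond to between 5.00 and 8.35 CPM, and such limits cover counting error only. Of 14 rows for cardiomyocyte miRNAs (mir-1a, mir-133a, mir-208a, mir-208b and mir-499), 8 had more than 10 reads, and their summed level was between 1789 and 2079 CPM in wt, 1900 and 2616 CPM in AGAT-/- and 2007 and 2436 CPM in AGAT-/-hArg mice, while 6 rows, the 3p arms of mir-1a, mir-133a, mir-208a and mir-208b, were listed at 0 in all libraries. Of the cardiomyocyte rows, mir-499-5p alone passed the test between AGAT-/-hArg and wt mice (log2 fold change 0.43, edgeR FDR = 0.0129). The other tested cardiomyocyte rows went in both directions there without a call, from -0.22 for mir-208a-5p to 0.76 for mir-208b-5p on the log2 scale. For AGAT-/- against wt mice, the log2 fold change of mir-499-5p was 0.36 without passing the test (edgeR FDR = 0.0647), although the groups did not overlap, and for AGAT-/-hArg against AGAT-/- mice it was 0.059. Rows of red blood cell miRNAs summed to between 6518 and 8184 CPM with 5 of 8 rows above 10 reads and both arms of mir-451a at 0, smooth muscle rows to between 9491 and 16780 CPM (3 of 4, mir-143-3p at 0), endothelial rows to between 6.52 and 27.3 CPM (2 of 2), and leukocyte rows to between 47.5 and 122.7 CPM (2 of 6, with mir-223-3p, mir-142a-5p and mir-150-5p at 0). The smooth muscle sum was nearly all mir-145a-3p, with means of 10500 CPM in wt, 11430 in AGAT-/- and 13070 in AGAT-/-hArg mice. Group means of mir-145a-5p were at most 2.84 CPM. The lowest endothelial sum, 6.52 CPM, lay within the range to which 3 reads correspond. Such sums describe listed reads and do not rank the cell types. The part of these miRNAs in the family's values was not tested. In bulk tissue, fewer cells of a type and less RNA per cell cannot be told apart.

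The family was carried by 5 rows. Over 15 libraries, mir-497a-5p held 18088 reads (75.8% of the family's reads), mir-195a-5p 2765 (11.6%), mir-16-2-3p 1354 (5.68%), mir-16-1-3p 970 (4.07%) and mir-15a-3p 645 (2.70%), each with more than 10 reads in every library. Another 2 rows exceeded 10 reads in sum: mir-195b-5p had 15 reads, between 0 and 3 per library, and mir-497a-3p had 12, between 0 and 2 per library. Below this, mir-497b-5p had 4 reads and mir-15b-5p had 2. The remaining 7 rows were listed at 0 in all 15 libraries: mir-15a-5p, mir-16-1-5p, mir-16-2-5p, mir-15b-3p, mir-195a-3p, mir-195b-3p and mir-497b-3p.

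The arm that held the reads differed between the members. Mir-497a, mir-195a and mir-195b were counted on the 5p arm, which carries the family seed. Mir-15a, mir-16-1 and mir-16-2 were counted on the 3p arm alone, with the seed-bearing arm at 0. Such lists were common in this series, where 522 precursors had an arm with more than 10 reads, 248 of them had the other arm at 0 and 125 had more than 10 reads on both. A cause of these zeros was not tested, and a row listed at 0, here or elsewhere in the series, is not read as an absent strand. The sum over the family and its comparison with other miRNAs cover the listed reads only. Nearly all family reads with the seed AGCAGCA thus came from mir-497a and mir-195a. In the family, mir-497a alone had more than 10 reads on both arms, and its 3p arm gave 12 of its 18100 reads, 0.0663% (Clopper-Pearson 95% interval 0.0343 to 0.116%, counting error only).

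**Figure D1:**
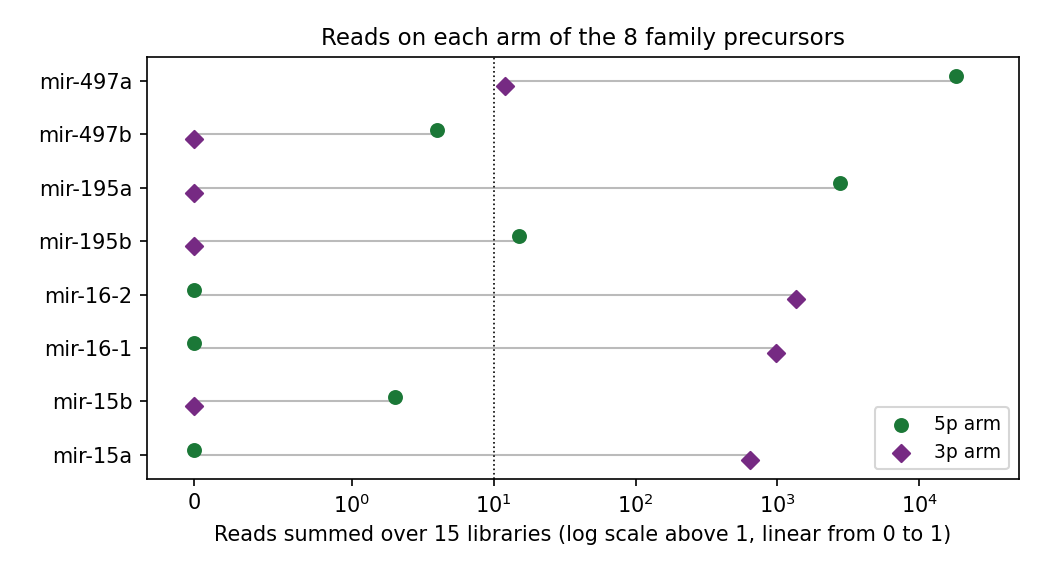
Reads summed over the 15 libraries on the 5p arm (circles) and the 3p arm (diamonds) of each of the 8 precursors; the axis is logarithmic above 1 read and linear below, and the dotted line marks 10 reads. Mir-497a and mir-195a sit far to the right on the 5p arm with 18088 and 2765 reads, whereas mir-16-2, mir-16-1 and mir-15a hold their 1354, 970 and 645 reads on the 3p arm.

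Among the 1164 rows of the series with reads, mir-497a-5p ranked 20 by mean level, followed by mir-195a-5p at 72, mir-16-2-3p at 98, mir-16-1-3p at 116 and mir-15a-3p at 135. Mature strands are nearly equal in length, but whether different strands were captured and assigned equally well was not tested, so that ranks and ratios between members describe reads rather than molecules. Mean levels over the 15 mice were 2642 ± 282 CPM for mir-497a-5p, 405.5 ± 60.7 for mir-195a-5p, 200.0 ± 30.9 for mir-16-2-3p and 95.1 ± 15.5 for mir-15a-3p (SD, n = 15). The ranges of mir-497a-5p, mir-195a-5p and mir-16-2-3p did not overlap, whereas mir-16-2-3p (149.1 to 250.4 CPM) overlapped mir-16-1-3p (108.8 to 176.0), and mir-16-1-3p overlapped mir-15a-3p (64.1 to 126.5).

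The first comparison asks what AGAT deficiency changes, the second how supplemented deficient mice compare with unsupplemented ones, and the third how supplemented mice compare with wt. They share mice (AGAT-/- mice stand in the first and the second, AGAT-/-hArg mice in the second and the third, wt mice in the first and the third), so their results are not independent. Each was tested with edgeR's quasi-likelihood test on the counts of 5 against 5 mice, for all rows with more than 10 reads in sum, and p was adjusted over all of these rows by the Benjamini-Hochberg method (FDR).

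No family row passed the test in any of these comparisons. Between AGAT-/- and wt mice, 0 of 6 tested family rows passed an FDR of at most 0.05, beside 12 of 562 rows overall (2.14%), and the groups did not overlap for 0 family rows, beside 3.38% of all rows. Between AGAT-/-hArg and AGAT-/- mice, 0 of 5 passed, beside 4 of 580 overall (0.690%), and 0 family rows did not overlap, beside 2.41% overall. Between AGAT-/-hArg and wt mice, 0 of 5 passed, beside 17 of 569 overall (2.99%), and 0 family rows did not overlap, beside 3.16% overall. By edgeR's test, DESeq2 and limma-voom alike, 0 family rows had an unadjusted p below 0.05 in any of the comparisons, and DESeq2 and limma-voom called 0 family rows as well, whereas edgeR gave such a p for 10.7%, 7.41% and 12.5% of all rows. With shares this low, 5 or 6 rows without a call do not set the family apart from the other miRNAs.

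Family rows scattered around no change. For AGAT-/- against wt mice, 3 had a fitted value above 0 and 3 below, with a median log2 fold change of -0.037 beside -0.043 over all rows. For AGAT-/-hArg against AGAT-/- mice, 2 were above and 3 below, with a median of -0.0015 beside 0.014. For AGAT-/-hArg against wt mice, 2 were above and 3 below, with a median of -0.11 beside 0.015. Over all tested rows, the median size of a log2 fold change without its sign was 0.25, 0.24 and 0.28 in the same order. Scaling by total counts in place of TMM moved the median of all rows for AGAT-/-hArg against wt mice from 0.015 to 0.12, and of the 5 abundant family rows it changed the sign of mir-15a-3p alone, from -0.11 to 0.0038.

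Mir-497a-5p, the most abundant member, is transcribed next to mir-195a. In wt mice 1 to 5 it measured 2777, 2121, 2694, 2625 and 2888 CPM. AGAT-/- mice 6 to 10 had 2807, 2836, 2198, 2855 and 2575 CPM. AGAT-/-hArg mice 11 to 15 had 2403, 2457, 2892, 2387 and 3120 CPM. The lowest values came from wt mouse 2 and AGAT-/- mouse 8, the highest from AGAT-/-hArg mouse 15, and the ranges of all groups overlapped. Group means were 2621 ± 296, 2654 ± 279 and 2652 ± 334 CPM (SD, n = 5). The log2 fold change was 0.0003 ± 0.096 (SE) for AGAT-/- against wt mice, with a 95% interval of the fold from 0.870 to 1.15 (FDR = 0.999). For AGAT-/-hArg against AGAT-/- mice, the interval of the fold was 0.873 to 1.14 (FDR = 0.996), and against wt mice it was 0.865 to 1.16 (FDR = 0.994). These were the narrowest intervals in the family.

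**Figure D2:**
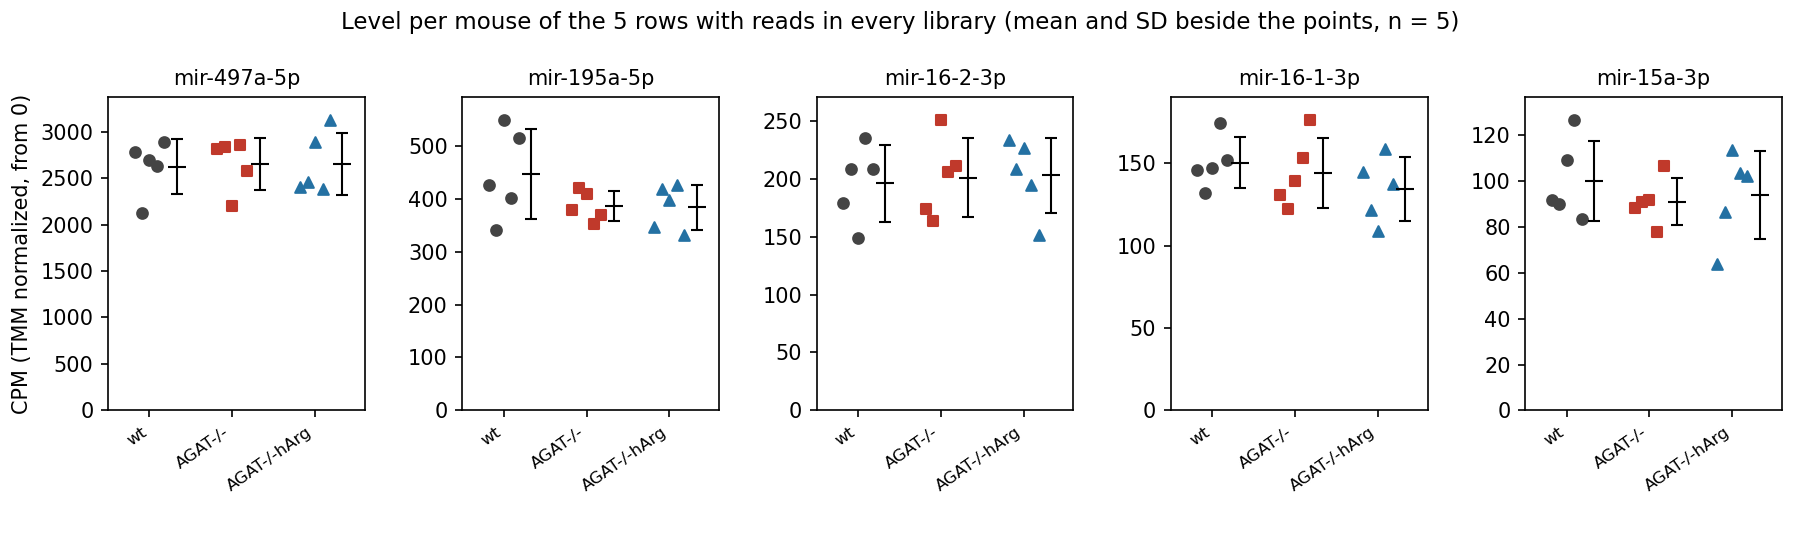
CPM per mouse (vertical axis, TMM normalized, starting at 0) in wt (circles), AGAT-/- (squares) and AGAT-/-hArg mice (triangles) for the 5 rows with more than 10 reads in every library, with the mean and SD of each group beside the points (n = 5). All groups overlap in every panel, and for mir-195a-5p the upper wt mice, at 548 and 515 CPM, lie above every AGAT-deficient mouse.

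Mir-195a-5p, the relative best known from the postnatal heart, showed the lowest p in the family for both comparisons with wt. In wt mice 1 to 5 it measured 425.3, 340.0, 548.0, 402.1 and 515.3 CPM. Values in AGAT-/- mice 6 to 10 were 378.6, 420.5, 409.1, 352.6 and 369.4 CPM. In AGAT-/-hArg mice 11 to 15 they were 347.2, 418.6, 397.2, 426.4 and 331.9 CPM. Wt mice 3 and 5 were above all 10 AGAT-deficient mice, whereas wt mouse 2 was below all AGAT-/- mice, so that the groups overlapped. Group means were 446.1 ± 84.9 CPM in wt, 386.1 ± 28.1 in AGAT-/- and 384.3 ± 42.6 in AGAT-/-hArg mice (SD, n = 5). The difference between AGAT-/- and wt mice did not pass the test, with a log2 fold change of -0.23 ± 0.12 (SE), a fold of 0.853 (95% interval 0.712 to 1.02), an unadjusted p of 0.0817 and an FDR of 0.562. Between AGAT-/-hArg and wt mice the log2 fold change was -0.23 ± 0.14 (fold 0.852, 95% interval 0.699 to 1.04), again not past the test (unadjusted p = 0.107, FDR = 0.541). AGAT-/-hArg and AGAT-/- mice differed by -0.0066 on the log2 scale (interval of the fold 0.853 to 1.16, FDR = 0.980). The fitted values for both comparisons with wt were below 0 under every alternative setting and with any mouse left out, but their size rested on few wt mice. For AGAT-/- against wt mice, the log2 fold change was -0.11 without wt mouse 3 (unadjusted p = 0.375 by edgeR), -0.13 without wt mouse 5 (unadjusted p = 0.351 by edgeR) and -0.31 without wt mouse 2 (unadjusted p = 0.0186, FDR = 0.272 by edgeR). For AGAT-/-hArg against wt mice, it was -0.14 without wt mouse 3 and -0.31 without wt mouse 2.

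The spread of mir-195a-5p was unequal between groups, with a coefficient of variation of 19.0% in wt, 7.29% in AGAT-/- and 11.1% in AGAT-/-hArg mice. Counting alone would give between 7.17% and 7.56% at these depths, since the row held 147 to 261 reads per library. AGAT-/- mice thus varied about as much as counting alone would give. The difference in spread was not tested.

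Mir-16-2-3p comes from the arm opposite the seed-bearing strand of the Smc4 intron. Levels in wt mice 1 to 5 were 178.9, 208.1, 149.1, 235.2 and 208.6 CPM, and those in AGAT-/- mice 6 to 10 were 173.8, 163.8, 250.4, 205.7 and 210.8 CPM. AGAT-/-hArg mice 11 to 15 measured 233.5, 208.5, 227.0, 194.3 and 151.6 CPM. Wt mouse 3 and AGAT-/-hArg mouse 15 were lowest, AGAT-/- mouse 8 was highest, and the groups overlapped throughout. Means were 196.0 ± 32.9, 200.9 ± 34.2 and 203.0 ± 32.6 CPM (SD, n = 5). Intervals of the fold were 0.808 to 1.26 for AGAT-/- against wt (FDR = 0.972), 0.819 to 1.26 for AGAT-/-hArg against AGAT-/- (FDR = 0.972) and 0.823 to 1.29 for AGAT-/-hArg against wt mice (FDR = 0.944).

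Mir-16-1-3p and mir-15a-3p come from the Dleu2 locus. For mir-16-1-3p, wt mice 1 to 5 had 146.1, 131.8, 147.0, 174.5 and 152.1 CPM, AGAT-/- mice 6 to 10 had 131.0, 122.0, 139.1, 153.2 and 176.0 CPM, and AGAT-/-hArg mice 11 to 15 had 144.7, 121.8, 108.8, 158.9 and 137.3 CPM. The highest and the lowest value came from AGAT-/- mouse 10 and AGAT-/-hArg mouse 13, and no group stood apart. Means were 150.3 ± 15.5, 144.3 ± 21.2 and 134.3 ± 19.6 CPM (SD, n = 5), with intervals of the fold of 0.767 to 1.18 for AGAT-/- against wt (FDR = 0.965), 0.745 to 1.16 for AGAT-/-hArg against AGAT-/- (FDR = 0.949) and 0.717 to 1.09 for AGAT-/-hArg against wt mice (FDR = 0.716). For mir-15a-3p, wt mice 1 to 5 had 91.6, 90.2, 109.2, 126.5 and 83.4 CPM, AGAT-/- mice 6 to 10 had 88.1, 91.0, 91.8, 77.7 and 106.5 CPM, and AGAT-/-hArg mice 11 to 15 had 64.1, 86.7, 113.5, 103.4 and 102.4 CPM. Wt mouse 4 was highest and AGAT-/-hArg mouse 11 lowest, with the other mice mixed between them. Means were 100.2 ± 17.5, 91.0 ± 10.3 and 94.0 ± 19.3 CPM (SD, n = 5). Intervals of the fold were 0.706 to 1.14 (FDR = 0.841), 0.802 to 1.31 (FDR = 0.972) and 0.713 to 1.20 (FDR = 0.887) in the same order of comparisons. With 31 to 81 reads per library for these rows, counting alone gives a coefficient of variation between 12.4% and 15.6%.

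Of the rows with few reads, mir-195b-5p entered the test of AGAT-/- against wt mice and no other, with a log2 fold change of 0.16 ± 0.80 (SE) and an interval of the fold from 0.348 to 3.59 (FDR = 0.972). Its reads were 5 in wt, 6 in AGAT-/- and 4 in AGAT-/-hArg mice, each summed over 5 libraries. A difference between groups was not detectable at this depth. For mir-497a-3p, with 5, 2 and 5 reads in these groups, no row test was made under the main filter. Reads of this strand were present in 7 of 15 libraries, with at most 2 in any of them. The ratio of its arms in single mice thus depends on the value added to a count of 0. By the planned exact permutation test of this ratio, 0 comparisons passed (lowest adjusted p = 0.524). At these counts the test cannot decide whether the balance of the arms differed between groups.

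**Figure D3:**
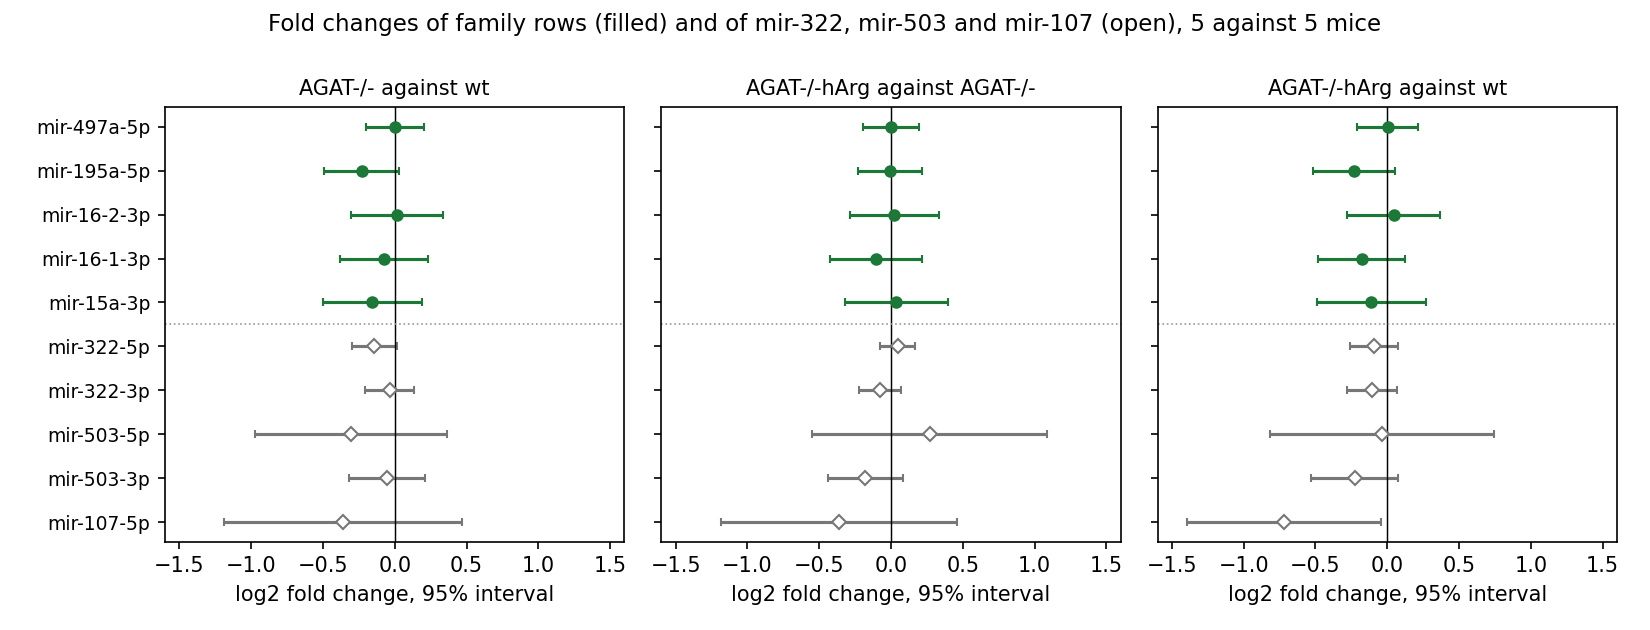
Log2 fold change (horizontal axis) with its 95% interval from edgeR for 5 family rows (filled circles) and for mir-322, mir-503 and mir-107 (open diamonds) in the 3 comparisons of 5 against 5 mice. The interval of every family row includes 0, and among family rows it is narrowest for mir-497a-5p.

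Summed over the family, 5p strands reached 3071 ± 365 CPM in wt, 3043 ± 272 in AGAT-/- and 3038 ± 315 in AGAT-/-hArg mice (SD, n = 5). Summed 3p strands reached 448.8 ± 53.3, 436.9 ± 50.7 and 433.5 ± 27.8 CPM. Group means of either sum lay within the SD of each other.

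The family rows differed in how far mice of 1 group varied beyond counting error. The variance within groups was 15.3 times the counting variance for mir-497a-5p, 3.45 times for mir-195a-5p and 2.49 times for mir-16-2-3p, but 1.22 times for mir-15a-3p and 1.13 times for mir-16-1-3p (12 degrees of freedom), beside a median of 2.20 over 227 rows with more than 150 reads. The measure grows with depth, so it does not rank the members by variability. The biological coefficient of variation that edgeR estimates was 13.0% for mir-497a-5p, 13.5% for mir-195a-5p, 13.4% for mir-16-1-3p, 14.2% for mir-15a-3p and 15.4% for mir-16-2-3p, beside a median of 14.0% over 647 rows. EdgeR draws each row's estimate toward those of other rows with similar levels, so these values are not each member's own measured spread.

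Neighbours in the genome were compared mouse by mouse. The level of mir-497a-5p was 5.96 ± 0.696 times that of mir-195a-5p in wt, 6.92 ± 1.01 times in AGAT-/- and 7.01 ± 1.51 times in AGAT-/-hArg mice (SD, n = 5), and it lay between 4.92 and 9.40 in single mice. For mir-16-1-3p over mir-15a-3p, the ratios were 1.52 ± 0.194, 1.59 ± 0.239 and 1.50 ± 0.475, with a range from 0.958 to 2.26. Mir-16-2-3p over mir-16-1-3p, whose seed-bearing strands are identical but whose loci lie on different chromosomes, gave 1.31 ± 0.208, 1.40 ± 0.231 and 1.55 ± 0.395. The last ratio was above 1 in all 15 mice, between 1.01 and 2.09.

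No correlation between members across the 15 mice passed the test after adjustment. Between mir-497a-5p and mir-195a-5p, Pearson's r was 0.129 (permutation p = 0.650, adjusted p = 0.801 over 10 pairs of members) and Spearman's rho was -0.004 (permutation p = 0.995, adjusted p = 0.995). Without the 2 mice farthest from the median of mir-497a-5p, r was -0.062. Within lane 8, with 10 libraries, r was 0.380, and lane 2 held too few libraries for a value. Between mir-15a-3p and mir-16-1-3p, r was 0.150 (permutation p = 0.597, adjusted p = 0.801) and rho was 0.200 (permutation p = 0.473, adjusted p = 0.836), with an r of -0.037 without the 2 farthest mice and of 0.529 within lane 8. The variance of these rows within groups was only 1.22 and 1.13 times the counting variance. Counting error thus made up most of it, and a low r cannot decide whether their levels vary together. Of the 10 pairs of members, mir-497a-5p and mir-16-2-3p had the lowest unadjusted p, with r = -0.532 (permutation p = 0.0408, adjusted p = 0.408), rho = -0.375 (permutation p = 0.170, adjusted p = 0.836), an r of -0.452 without the 2 farthest mice and of -0.511 within lane 8.

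**Figure D4:**
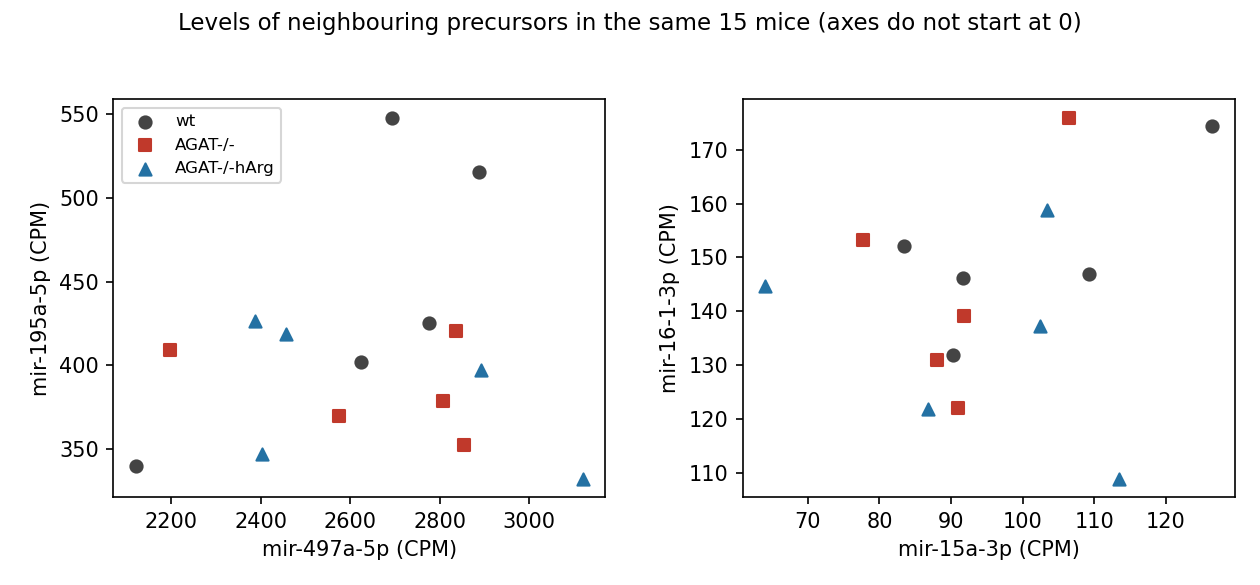
Level of mir-195a-5p against mir-497a-5p (left) and of mir-16-1-3p against mir-15a-3p (right) in CPM, 1 point per mouse, in wt (circles), AGAT-/- (squares) and AGAT-/-hArg mice (triangles); the axes do not start at 0. Points of all groups are mixed, with r = 0.129 on the left and 0.150 on the right over 15 mice. On the right, counting error made up most of the variance within groups, so r cannot decide whether these levels vary together.

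Outside the family, mir-322-5p carries the same seed at bases 2 to 8, as does mir-6419-5p, whereas mir-503-5p shares it up to base 7 only. Mir-322 and mir-503 lie close together on the X chromosome. Mir-107 and mir-103 are often grouped with them, but hold the letters AGCAGC from base 1.
mir-322-5p: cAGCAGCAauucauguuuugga
mir-503-5p: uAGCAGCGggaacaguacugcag
mir-107-3p: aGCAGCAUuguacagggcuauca

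The seed-bearing mir-322-5p had far more reads than the listed family rows, with a mean of 24970 CPM and rank 5 of the 1164 rows with reads. It exceeded mir-497a-5p by 9.52 ± 1.04 times (SD, n = 15), and by 7.80 to 11.1 times in single mice. It had group means of 26140 ± 2975 CPM in wt, 23990 ± 1205 in AGAT-/- and 24770 ± 1807 in AGAT-/-hArg mice (SD, n = 5), and its log2 fold change was -0.14 ± 0.074 (SE) for AGAT-/- against wt mice (FDR = 0.534). Summed 5p strands of the family were below mir-322-5p in all 15 mice, in a sum to which the 5p arms of mir-15a, mir-16-1 and mir-16-2 add nothing because they are listed at 0. Of 10 rows for mir-322, mir-503, mir-103-1, mir-107 and mir-6419, 5 had more than 10 reads, and these were tested in each comparison with 0 calls by edgeR. The arms of mir-103-1 and mir-107 that carry AGCAGC from base 1 and both arms of mir-6419 were listed at 0. An unadjusted p below 0.05 was found for mir-107-5p in AGAT-/-hArg against wt mice alone, with a log2 fold change of -0.72 ± 0.33 (SE) at an FDR of 0.355, and this row held 1 to 21 reads per library.

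The rows most like mir-497a-5p across the 15 mice were sought among 121 rows outside the family with at least 50 reads per library on average, by Spearman's rho of log2 CPM. They were mir-501-3p (rho = 0.564), mir-151-3p (0.539), mir-503-3p (0.539), mir-92a-1-3p (0.514) and mir-30b-3p (0.496). Within lane 8 their rho was 0.818, 0.648, 0.491, 0.588 and 0.515. These are the highest of many values from libraries that share their scaling, and they are given as a description.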

How the data were processed

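MiRNA was sequenced from the LV of 15 mice, 5 per group, each with its own library. The authors used the CLC Genomics Workbench and miRBase to assign reads to mature miRNAs, and the deposited values are raw read counts without normalization; the submitters' processing notes name the build GRCm38. The miRBase release, the allowed mismatches and the treatment of reads with several matches are not given in the sources used here. Groups follow the labels, and each column was used.

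Groups were compared in pairs with edgeR 4.0.16 (R 4.3.3; TMM, glmQLFit, glmQLFTest) on rows whose sum over the 10 libraries exceeded 10 reads, at an FDR of at most 0.05 over all rows tested. The study's methods use DESeq2, which is an alternative here (DESeq2 1.42.0), besides limma-voom (limma 3.58.1), other scalings and filters, all 15 libraries in 1 fit, identical mature rows summed, the 3 most abundant miRNAs left out, the animal number as a covariate (AGAT-/- against wt mice only) and each mouse left out. The scripts were tested on simulated data. CPM per mouse use TMM over 15 libraries. Correlations used 100000 permutations (scipy 1.17.1, Python 3.11.15). P-values judge group differences against the spread between these mice, and correlations against permuted values of the same mice. Over 30 pairs of libraries within groups, chi-square per degree of freedom was 2.61 to 17.5, so none agreed within sampling noise.

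Named are all family rows, tested rows of mir-322, mir-503, mir-103, mir-107 or any other miRNA with the seed core, and the 5 rows most like the most abundant member. The members and lists were chosen with earlier results of these data known. Mir-103-2, mir-6342 and mir-6353 and data other than these counts were not analysed here.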

Additional observations from a re-analysis of the deposited data

Results flagged for a closer look

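Of 48 groups of 5 values examined for a mouse far from the others by Dixon's test, 3 held one, and chance gives about 1 in 20. AGAT-/- mouse 6 had the lowest level of mir-322-5p in its group, 21900 CPM, with the gap to the next mouse taking 0.753 of the group's range. Wt mouse 4 had the highest sum of family 3p strands in its group, 541.2 CPM (gap 0.737 of the range). AGAT-/- mouse 8 had the highest ratio of mir-16-2-3p to mir-16-1-3p in its group, 1.80 (gap 0.758 of the range).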

How the results depend on the processing

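Over 61 alternative fits, 0 family rows were called, and the lowest family FDR was 0.272, 0.656 and 0.318 for AGAT-/- against wt, AGAT-/-hArg against AGAT-/- and AGAT-/-hArg against wt mice. The fits with identical mature rows summed could only repeat the main fits. They summed mir-16-1-5p and mir-16-2-5p, both listed at 0, so their place in these counts is no check. An unadjusted p below 0.05 appeared for 1 family row without wt mouse 2 in either comparison with wt (mir-195a-5p, log2 fold change -0.31 for both). Of 305 alternative log2 fold changes of the 5 rows, 267 kept their sign and 38 changed it, all without a call. For AGAT-/- against wt mice, the covariate gave -0.0001 for mir-497a-5p and -0.19 for mir-16-2-3p, and it moved mir-16-1-3p from -0.074 to -0.29 and mir-15a-3p from -0.16 to -0.23. For AGAT-/-hArg against AGAT-/- mice, total counts gave 0.068 for mir-497a-5p and 0.064 for mir-195a-5p, more than 10 reads in every library gave 0.0099 and 0.0069, and edgeR's filterByExpr gave 0.0027 for mir-497a-5p. For AGAT-/-hArg against wt mice, total counts gave 0.0038 for mir-15a-3p. With 1 mouse left out, AGAT-/- against wt mice gave -0.067 to 0.085 for mir-497a-5p, -0.12 to 0.012 for mir-16-1-3p and -0.065 to 0.12 for mir-16-2-3p. Likewise, AGAT-/-hArg against AGAT-/- mice gave -0.069 to 0.026 for mir-497a-5p, -0.059 to 0.040 for mir-195a-5p, -0.072 to 0.14 for mir-15a-3p and -0.053 to 0.11 for mir-16-2-3p. AGAT-/-hArg against wt mice gave -0.059 to 0.044 for mir-497a-5p, -0.18 to 0.0027 for mir-15a-3p, -0.040 to 0.14 for mir-16-2-3p and -0.51 to 0.23 for the arm ratio of mir-497a (log2 of 3p over 5p reads, 0.5 added to each), a planned comparison that the few 3p reads leave without meaning. The cause of these sign changes was not tested. Calls over all rows ranged from 8 to 18, from 2 to 8 and from 10 to 28 in the order above. Requiring more than 10 reads on both arms in every library left no precursor, so the arm ratio has no value there. Replicate numbers only number the mice, and the litter of each mouse is not given in the sources used here. No paired analysis was therefore possible, and litter could not be taken into account. Depth limits the rows under 16 reads, for which no difference of moderate size could be seen.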
